A study of Homo sapiens with 4 samples.

Results

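The genes of interleukin-6 (IL-6) signalling through Janus kinases (JAK) and STAT transcription factors were followed in a pair of acetyl-histone H3 peak lists from H929 cells, an established line of human multiple myeloma. The 9 genes were chosen by name: the receptor genes IL6R and IL6ST, the kinase genes JAK1, JAK2 and TYK2, the transcription factor genes STAT3 and STAT5B, and the feedback inhibitor genes SOCS1 and SOCS3. Every peak that the authors annotated to one of these symbols was taken, which gave 11 of the 14608 peaks listed: 9 of 9780 in the list from cells that overexpressed AIMP1 (the AIMP1-OE list), and 2 of 4828 in that from wild-type cells (the WT list). Per the series title and the labels, the groups were H929 cells with AIMP1 overexpression and wild-type H929 cells, each with 1 acetyl-H3 ChIP-seq library and 1 input library. How AIMP1 was overexpressed, and whether the cells were a clone or a pool, is not given in the sources used here. Fixation was with 1% formaldehyde for 10 minutes, per the labels' protocols, before immunoprecipitation with an acetyl-H3 antibody. The inputs were not analysed here. With 1 library per group there is no replicate error, and no difference between the groups carries a test or a p-value.

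IL-6 is a growth and survival factor for plasma cells and for myeloma cells. It binds the receptor chain encoded by IL6R, and the complex recruits gp130, the signal-transducing chain encoded by IL6ST, which most receptors of the IL-6 family share. The kinases JAK1, JAK2 and TYK2, held on the inner part of gp130, phosphorylate the receptor and STAT3, which then enters the nucleus and switches on genes that include its own inhibitor SOCS3. Acetylation of histone H3 marks active promoters and enhancers, so a peak at a start site is a mark of an open, active promoter. AIMP1 is a scaffold subunit of the multi-tRNA synthetase complex.

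A promoter peak stood at 8 of the 9 genes in the AIMP1-OE list and at 0 of 9 in the WT list. Over the 19974 protein-coding genes on the chromosomes with peaks, the shares were 33.9% and 7.4%. All 8 promoter peaks were thus AIMP1-OE only, a call that held for 28.5% of protein-coding genes. Promoter peaks in both lists were found at 0 of the 9 genes, against 5.39% of protein-coding genes, and WT only at 0 of 9, against 2.01%. Of the protein-coding genes that either list gives a promoter peak, 79.4% were AIMP1-OE only. The 8 of 8 here are therefore no result about these genes, since an AIMP1-OE promoter peak without a WT one is the rule. IL6R was the 1 gene with no promoter peak, as were 64.1% of protein-coding genes, and it had no other annotated peak, as had 58.7%. Such a gene had no peak at the authors' threshold, and acetylation below that threshold cannot be seen in these lists.

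The sequences before the start sites set IL6R, which had no peak, beside genes with a peak at the start. They are the 250 bases before a RefSeq start (GRCh38.p14), written 5′ to 3′ on the strand of the gene. Capitals mark GC boxes (GGGCGG or its reverse complement CCGCCC) and CCAAT boxes (CCAAT or its reverse complement ATTGG). The first pair are the receptor genes, of which IL6R had no peak and IL6ST an AIMP1-OE peak.
IL6R (chr1:154405093-154405342, plus strand): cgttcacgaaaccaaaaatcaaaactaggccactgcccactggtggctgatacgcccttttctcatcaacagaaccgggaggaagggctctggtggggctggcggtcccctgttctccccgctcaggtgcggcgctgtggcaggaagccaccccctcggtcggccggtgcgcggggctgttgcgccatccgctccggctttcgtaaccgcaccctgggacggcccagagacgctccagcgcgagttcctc
IL6ST (chr5:55994964-55995213, minus strand): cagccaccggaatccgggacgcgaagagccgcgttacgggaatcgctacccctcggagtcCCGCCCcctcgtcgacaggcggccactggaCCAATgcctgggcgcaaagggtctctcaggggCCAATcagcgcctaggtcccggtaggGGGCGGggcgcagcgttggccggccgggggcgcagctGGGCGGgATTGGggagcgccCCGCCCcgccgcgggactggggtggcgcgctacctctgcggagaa
The next pair are separate starts of JAK1. An AIMP1-OE peak covered all 250 bases of the distal one, but only 6 of the 250 before the start nearer the coding part, so that sequence lies mostly outside the peak.
JAK1, start nearer the coding part (chr1:64966550-64966799, minus strand): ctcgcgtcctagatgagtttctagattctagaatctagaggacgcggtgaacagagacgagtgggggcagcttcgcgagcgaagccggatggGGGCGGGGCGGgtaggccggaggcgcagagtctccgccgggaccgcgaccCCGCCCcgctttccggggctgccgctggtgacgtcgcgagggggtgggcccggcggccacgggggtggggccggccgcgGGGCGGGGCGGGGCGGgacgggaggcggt
JAK1, distal start (chr1:65067747-65067996, minus strand): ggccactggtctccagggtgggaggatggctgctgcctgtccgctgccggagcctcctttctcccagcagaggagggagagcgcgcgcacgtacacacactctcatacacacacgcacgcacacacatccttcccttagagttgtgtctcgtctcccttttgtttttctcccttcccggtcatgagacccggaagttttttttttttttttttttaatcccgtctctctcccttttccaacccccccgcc
The last are TYK2, shown for its row of CCAAT boxes, and STAT3, the main transcription factor of the pathway.
TYK2 (chr19:10380573-10380822, minus strand): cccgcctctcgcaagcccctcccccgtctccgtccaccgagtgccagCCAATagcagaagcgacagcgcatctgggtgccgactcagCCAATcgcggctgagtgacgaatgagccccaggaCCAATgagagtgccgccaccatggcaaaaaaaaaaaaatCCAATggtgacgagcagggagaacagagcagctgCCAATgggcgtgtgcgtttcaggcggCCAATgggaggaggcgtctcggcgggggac
STAT3 (chr17:42388443-42388692, minus strand): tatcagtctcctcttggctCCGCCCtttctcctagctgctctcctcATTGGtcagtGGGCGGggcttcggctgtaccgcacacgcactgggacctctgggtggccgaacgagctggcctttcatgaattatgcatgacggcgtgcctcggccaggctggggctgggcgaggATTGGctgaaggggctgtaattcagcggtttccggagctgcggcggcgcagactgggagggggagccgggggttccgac

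The RefSeq table held 15 start windows for the 9 genes, each reaching from 250 bases before to 50 bases after a start. Peak overlap was taken over the whole window. CG dinucleotides, motifs and boxes were counted only in the 250 bases before the start. An AIMP1-OE peak overlapped 11 of the 15 and a WT peak 0 of 15. Over all 35116 windows of the table, AIMP1-OE peaks overlapped 28.5% and WT peaks 3.66%. The 4 windows without an AIMP1-OE peak were the single one of IL6R, 1 of 3 of JAK1, 1 of 4 of JAK2 and 1 of 2 of SOCS3. Windows that an AIMP1-OE peak overlapped were rich in CG dinucleotides across the genome, with a median of 23 in the 250 bases, against 5 in windows without one. Among the 9 genes the medians were 27 in the 11 overlapped windows and 11.5 in the 4 others. The peak covered all 250 bases in 9 of the 11, but 10 of the 250 at SOCS1 and 6 at the JAK1 start nearer the coding part. The pattern did not hold for every window. The IL6R window had no peak but held 22 CG dinucleotides, as many as 1 of the overlapped windows of JAK2. Overlapped windows of JAK2 (8), JAK1 (13, the distal start), STAT3 (18) and TYK2 (19) held fewer. The STAT motif TTCNNNGAA, which reads the same on both strands, had no match in the 15 windows, and 6.57% of all windows held one. It follows that its stricter form TTCCNGGAA, which 0.968% of all windows held, had none either. That says only that these letters are not in the bases searched. The SOCS3 windows lay from -1098 to -799 bp and from 160 to 459 bp of the start site that the authors give. The bases just before that site were therefore not searched.

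GC boxes and CCAAT boxes, searched on both strands with overlapping matches counted, differed between the members. The start of JAK1 nearer the coding part held 6 GC boxes, of which the AIMP1-OE peak reached 0, where 4.15% of all windows held 5 or more. The distal JAK1 start held 0 of either box. TYK2 held 6 CCAAT boxes, all on the strand of the gene, where 0.105% of all windows held 6 or more. IL6ST held 4 GC boxes and 3 CCAAT boxes, STAT3 held 2 of each, and IL6R held 0 of either. Of all windows, 42.6% held a GC box and 32.0% a CCAAT box. Among windows that an AIMP1-OE peak overlapped, the shares were 71.5% and 32.2%. STAT5B had the most CG dinucleotides of the 9 genes, 47, which is as many as or more than in 99.7% of all windows. These boxes were looked for after the sequences had been seen, and a match is a description, not a site of binding.

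**Figure D1:**
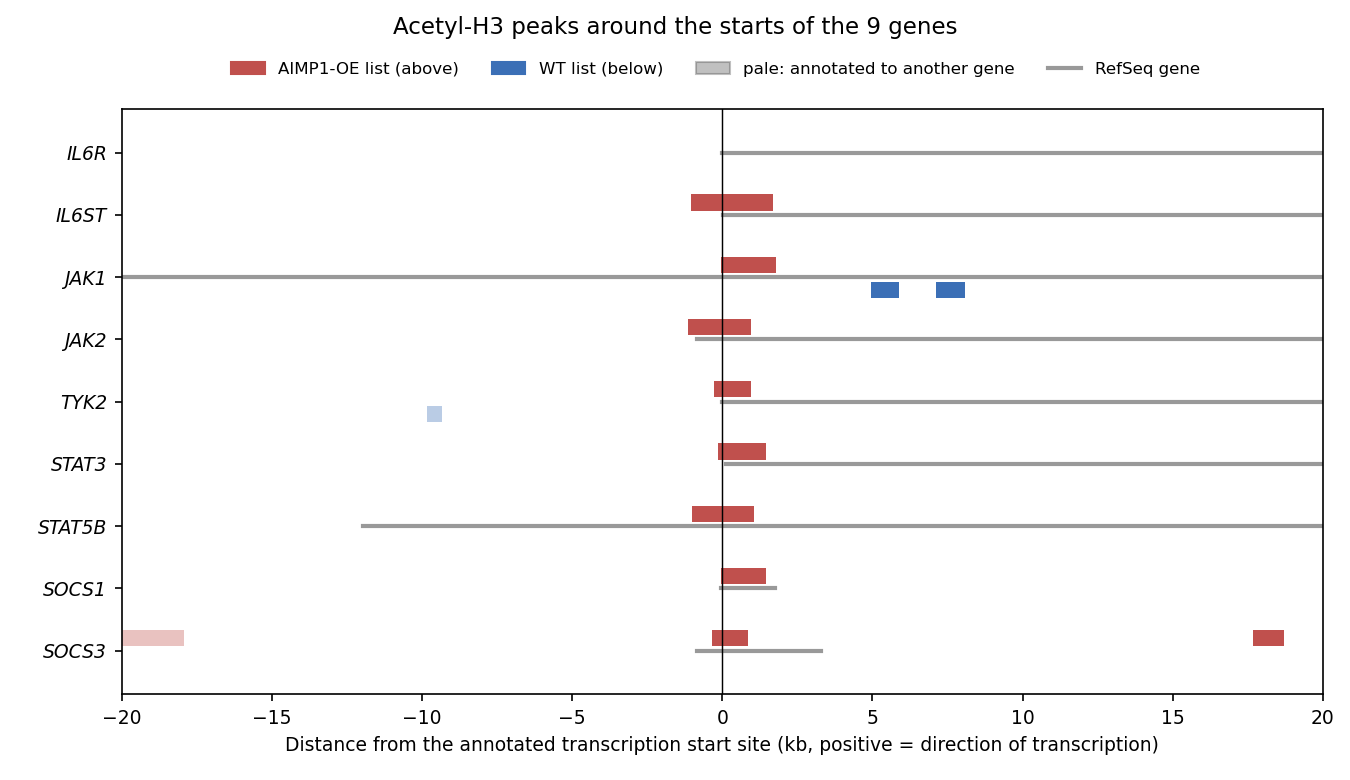
Peaks of both lists within 20 kb of the annotated start site of each of the 9 genes (for IL6R, its RefSeq start), along the direction of transcription in kb. Bars above each grey gene line are AIMP1-OE peaks, bars below it are WT peaks, and pale bars are annotated to another gene; 8 of 9 starts lie under an AIMP1-OE peak and none under a WT peak.

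The receptor genes differed from each other in the AIMP1-OE list. IL6ST had 1 promoter peak there (chromosome 5, 55993307 to 55996017), with a fold enrichment of 6.53 at p 1.26e-08. The fold and the p come from the authors' peak caller, for that peak within its own list and over a background that the files do not describe. They give no direction between the lists. Coordinates are as deposited; the lists name no build, and their genes lie where GRCh38.p14 has them. At 2711 bp this was the widest peak of the 9 genes, wider than or as wide as 85.3% of the 8300 AIMP1-OE promoter peaks, although its fold stood only at percentile 30.0 of them. It reached 1024 bp before the start site that the authors give and 1686 bp past it, and its summit lay 362 bp before that site. The nearest WT peak was 156376 bp away. For IL6R, the nearest AIMP1-OE peak lay 76333 bp from the RefSeq gene and the nearest WT peak 80551 bp, and both were annotated to ATP8B2.

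All 3 kinase genes had an AIMP1-OE promoter peak of middling to low fold. JAK1, the kinase that gp130 signalling most depends on, had a fold of 6.78 (chromosome 1, 64964698 to 64966555, p 2.11e-10). JAK2, the kinase also used by the erythropoietin and growth hormone receptors, had a fold of 6.9 (chromosome 9, 4984105 to 4986191, p 2.06e-14). TYK2, best known for interferon and IL-12 receptors, had a fold of 7.02 (chromosome 19, 10379616 to 10380844, p 5.45e-06). In rank among AIMP1-OE promoter peaks these folds stood at percentiles 32.7, 39.1 and 40.3 for JAK1, JAK2 and TYK2. The order of fold among the kinases was not the order of p: JAK2 had the smallest p and TYK2 the largest. The JAK2 peak overlapped 3 of the 4 RefSeq start windows of the gene.

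JAK1 was the 1 gene of the 9 with annotated peaks in both lists, as were 9.28% of protein-coding genes, and the peaks lay at different places. The WT list held a pair of peaks in its first intron. One spanned 64960614 to 64961561 on chromosome 1 (fold 5.04, p 0.000125), and the other 64958427 to 64959400 (fold 3.84, p 0.00035). Among the 3089 WT peaks outside promoters these folds stood at percentiles 74.2 and 20.6. They lay 3137 bp and 5298 bp from the AIMP1-OE promoter peak, further into the gene, so neither overlapped it; of all WT peaks outside promoters, 2.88% overlapped an AIMP1-OE peak. The intron peaks were 1214 bp apart and no AIMP1-OE peak lay over them.

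A second AIMP1-OE peak covered the distal start of JAK1 that RefSeq gives, but the authors annotated it to the microRNA gene MIR101-1. It spanned 65066210 to 65068517 on chromosome 1 (fold 6.39, p 8.81e-10) and was classed as an exon of another transcript. It lay 99655 bp from the peak annotated to JAK1. Counting both, an AIMP1-OE peak overlapped 2 of the 3 RefSeq start windows of JAK1. Each peak carries 1 gene name, so a start that several genes share is counted for 1 of them. A WT peak inside JAK2 was likewise annotated to another gene: it lay in intron 22 of 24 of JAK2 (chromosome 9, 5114832 to 5115446, fold 4.57, p 0.000494) and was given to INSL6. It was 128641 bp from the AIMP1-OE promoter peak of JAK2.

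**Figure D2:**
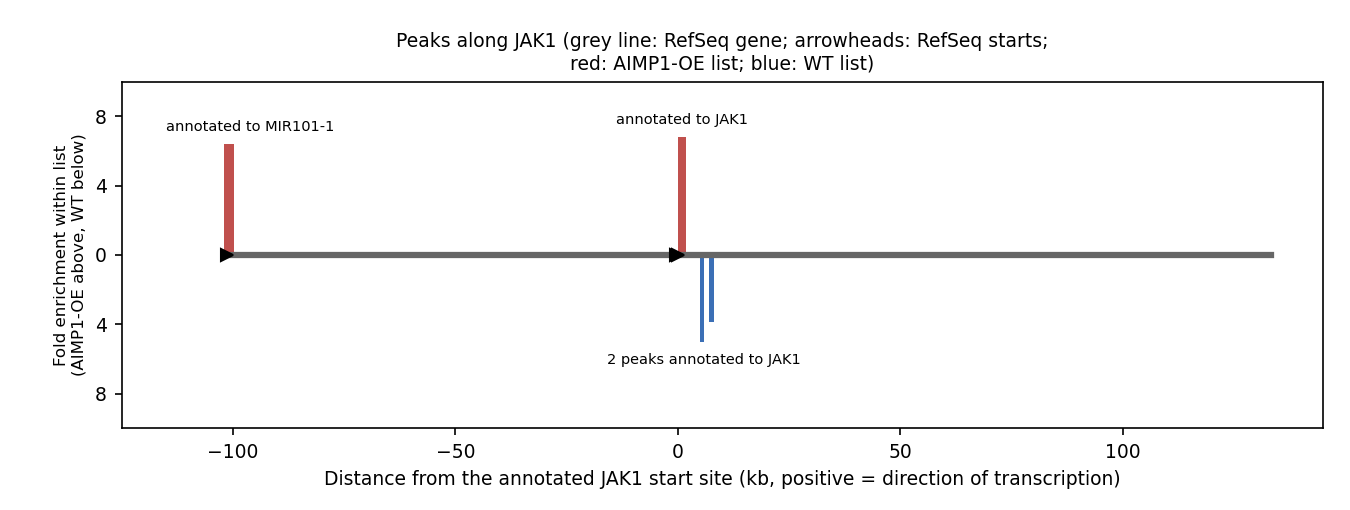
Peaks along JAK1 against the distance from its annotated start site in kb, with bar height the authors' fold within each list (AIMP1-OE above, WT below). The AIMP1-OE peaks, with folds of 6.39 and 6.78, stand over starts about 100 kb apart, and the WT peaks, with folds of 5.04 and 3.84, stand in the intron just past the second.

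The transcription factor genes had the highest AIMP1-OE folds of the 9 genes, although by p the JAK2 peak ranked ahead of that of STAT3. STAT5B, a factor that growth hormone, prolactin and IL-2 receptors use, had a fold of 11.4 (chromosome 17, 42275356 to 42277428, p 1.04e-23), at percentile 88.5 of AIMP1-OE promoter peaks. STAT3 had a fold of 10.29 (chromosome 17, 42387101 to 42388720, p 6.31e-13), at percentile 81.4. None of the other 6 promoter peaks exceeded a fold of 8.38. The peak of STAT5B spread almost evenly around its start site, 1022 bp before and 1050 bp after, while that of STAT3 reached 152 bp before and 1467 bp after. STAT5B, STAT5A and STAT3 are neighbours on chromosome 17. The STAT5A promoter also had an AIMP1-OE peak (42302846 to 42303983), with a fold of 4.87. From the first of these peaks to the last, a span of 113365 bp held 3 AIMP1-OE peaks, 1 for each gene, and 0 WT peaks. The nearest WT peaks were 80709 bp before the span, at GHDC, and 134837 bp past it, annotated to ATP6V0A1.

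Both feedback inhibitor genes had an AIMP1-OE promoter peak. SOCS1, which blocks the catalytic site of JAK kinases, had a fold of 8.38 (chromosome 16, 11254735 to 11256214, p 1.26e-08), at percentile 62.8 of AIMP1-OE promoter peaks. Its peak lay almost wholly inside the short gene, with 35 bp before the start site and 1444 bp after it, and its summit was 841 bp past the start. SOCS3, which binds gp130 and the kinases together, had a fold of 6.81 (chromosome 17, 78359208 to 78360411) and, at 5.37e-05, the weakest p of the 8 promoter peaks. At 1204 bp it was also the narrowest of the 8. A second AIMP1-OE peak annotated to SOCS3 (78341368 to 78342420, fold 6.29, p 0.000836) lay 17657 bp from its start site, past the end of the gene and in an intron of another transcript. Its p was near the largest in the list, 0.001. The nearest WT peak was 223049 bp from the distant peak and 240889 bp from the promoter peak. For SOCS1 it was at 40840 bp, annotated to MIR548H2.

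As a group, the 8 promoter peaks were ordinary members of the AIMP1-OE list. Their folds ran from 6.53 to 11.4 with a median of 6.96, and the median of all 8300 AIMP1-OE promoter peaks was 7.65. The folds of IL6ST, JAK1, JAK2, TYK2 and SOCS3 were below that median, and those of SOCS1, STAT3 and STAT5B above it. Their median width was 1739 bp, against 1684 bp for all. All 8 covered the start site that the authors give, as did 89.4% of all AIMP1-OE promoter peaks. That site is the start of the transcript assigned to the peak, so it was not chosen apart from the peak. The summit lay past the start in 5 of the 8, and in 73.3% of all. A WT peak overlapped 0 of the 8, and 11.9% of all AIMP1-OE promoter peaks. A WT peak lay within 10 kb of 2 of the 8, those of JAK1 and TYK2, and of 19.7% of all. The WT peak near TYK2, 9064 bp away, was annotated to CDC37.

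**Figure D3:**
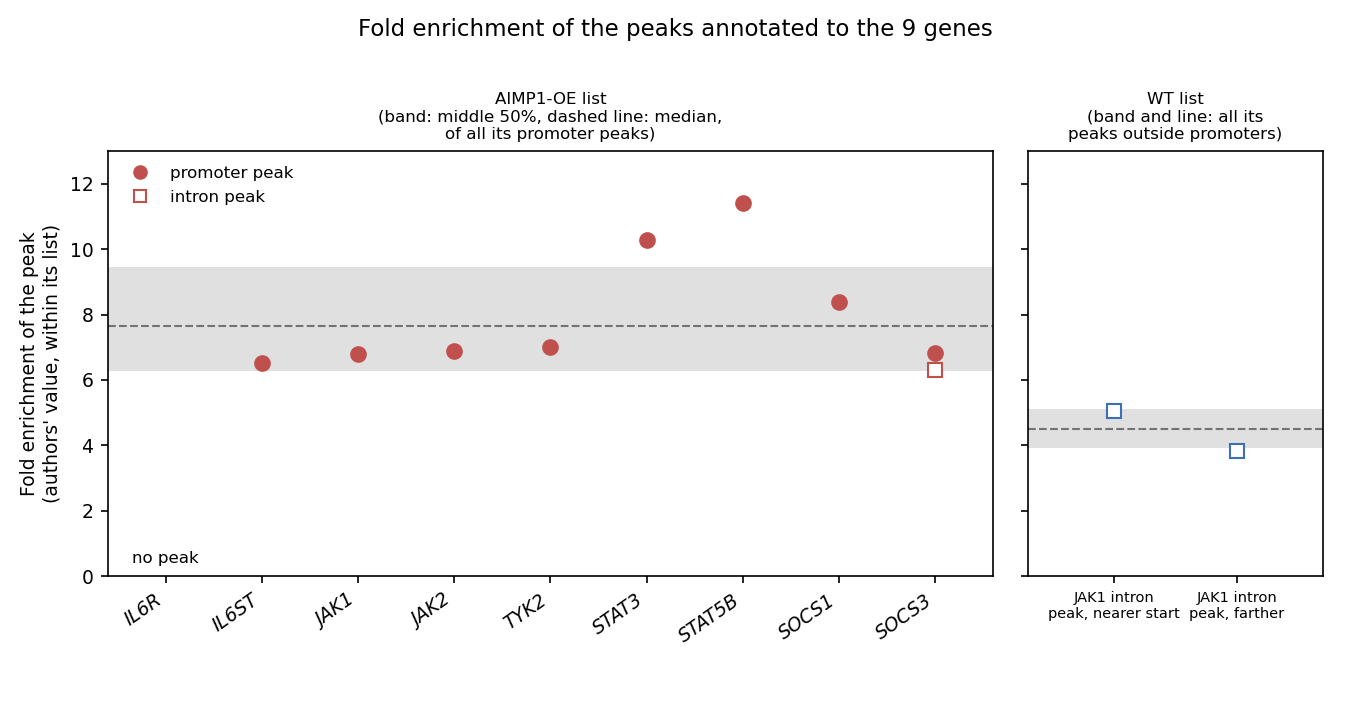
Fold enrichment, as the authors give it for a peak within its own list, of every peak annotated to the 9 genes. Filled circles are promoter peaks and open squares intron peaks; the band and the dashed line mark the middle 50% and the median of all AIMP1-OE promoter peaks (left) and of all WT peaks outside promoters (right). STAT5B (11.4) and STAT3 (10.29) stand above the left band, and the fold scales of the lists are not comparable.

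The rest of the pathway was described with 62 further genes in 9 lists. Of these, 27 (43.5%) had an AIMP1-OE-only promoter peak, against 28.5% of protein-coding genes. Another 6 (9.68%) had one in both lists, against 5.39%, and 3 (4.84%) a WT-only one, against 2.01%. The other 26 (41.9%) had none, against 64.1%. These calls count promoter peaks only, and with any annotated peak 13 of the 62 genes were in both lists. These lists were chosen with earlier results known, so the shares are a description. Once a protein-coding gene had at least 1 promoter peak, an AIMP1-OE-only call was the rule (79.4%). The 43.5% goes with fewer genes that lack a promoter peak, and alone is no result about a difference between the lists. The same reading applies to the AIMP1-OE-only shares given below. Of the 24 ligand and receptor genes, 16 had no promoter peak, and this share of 66.7% is near the 64.1% of all protein-coding genes. Of 9 ligand genes of the gp130 family, IL6 among those without a peak, IL11 and CLCF1 had an AIMP1-OE-only promoter peak, each with a fold of 8.38. The genes of the paired IL-27 subunits had a WT-only one: EBI3 with a fold of 6.09 (p 2.89e-06) and IL27 with 4.0 (p 0.000458). Of 5 other gp130-family receptor genes, IL27RA alone had one, with an AIMP1-OE fold of 13.06, higher than any of the 9 genes. Of 10 other JAK-STAT receptor genes, IFNAR2 (9.3) was AIMP1-OE only, and IL10RA and IFNAR1 were in both. IL10RA had an AIMP1-OE fold of 8.87 and a WT fold of 3.81. IFNAR1 had an AIMP1-OE fold of 5.58 and a WT fold of 3.79. ADAM10, which sheds the IL-6 receptor from the cell surface, had promoter peaks in both lists, with an AIMP1-OE fold of 8.2 over a WT peak with a fold of 4.02. A second WT promoter peak annotated to ADAM10 had a fold of 5.03 and lay 121743 bp from the nearest AIMP1-OE peak. ADAM17 had no promoter peak.

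JAK3 (5.98), the kinase of the common gamma chain receptors, STAT5A (4.87) and STAT6 (4.72), the factor of IL-4 signalling, were AIMP1-OE only, and STAT2 and STAT4 had no promoter peak. All 3 of these AIMP1-OE folds were lower than those of the 8 promoter peaks above.

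Of the 16 SOCS, PIAS, phosphatase and LNK genes, 10 (62.5%) had an AIMP1-OE-only promoter peak, against 28.5% of protein-coding genes, and 2 (12.5%) had one in both lists, against 5.39%. Of 6 other SOCS genes, SOCS6 (12.58), CISH (6.81) and SOCS7 (5.3) were AIMP1-OE only. SOCS5 was in both, with an AIMP1-OE fold of 5.21 and a WT fold of 5.14. Of 4 PIAS genes, whose proteins restrain STAT factors, PIAS4 (8.37 at the highest of its promoter peaks) and PIAS1 (6.99) were AIMP1-OE only. PIAS3, named for its binding to STAT3, was in both, with an AIMP1-OE fold of 4.35 and a WT fold of 3.94. Its WT peak had the smaller p and was the wider: the AIMP1-OE peak had p 0.000209 and 1357 bp, and the WT peak p 8e-12 and 3017 bp. Of 6 genes of phosphatases and the adaptor LNK, 5 were AIMP1-OE only: PTPN2 (13.11), PTPN6 (9.7), PTPN11 (8.91), PTPN1 (7.29) and SH2B3 (6.81). PTPRC, the CD45 phosphatase, had no promoter peak.

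Of 15 known STAT3 target genes, 10 had an AIMP1-OE-only promoter peak, 1 had one in both lists and 1 a WT-only one. These are 66.7%, 6.67% and 6.67% of the targets, against 28.5%, 5.39% and 2.01% of protein-coding genes. The other 3 (20.0%) had none, against 64.1%. PRDM1 (17.29), IRF4 (12.12), VEGFA (10.48) and IRF1 (8.77) had the highest folds of the targets AIMP1-OE only by promoter peaks. Outside promoters, WT peaks were annotated to PRDM1 (fold 3.66), IRF4 (2.79 and 3.19) and IRF1 (4.09). That of IRF1 overlapped an AIMP1-OE peak. MCL1, a survival gene of myeloma cells, was in both, with an AIMP1-OE fold of 9.77 and a WT fold of 3.95. JUNB counted as WT only (3.35), but its peak lay under an AIMP1-OE peak with a fold of 10.44 that the authors annotated to HOOK2. In the same way, CEBPB, SOCS4 and PIAS2 counted as without a promoter peak, while an AIMP1-OE peak annotated to CEBPB-AS1, WDHD1 or KATNAL2 overlapped a RefSeq start of each. Of the 6 pathway genes with promoter peaks in both lists, all 6 had an AIMP1-OE promoter peak that overlapped a WT one, as had 809 of 1076 protein-coding genes with promoter peaks in both.

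**Figure D4:**
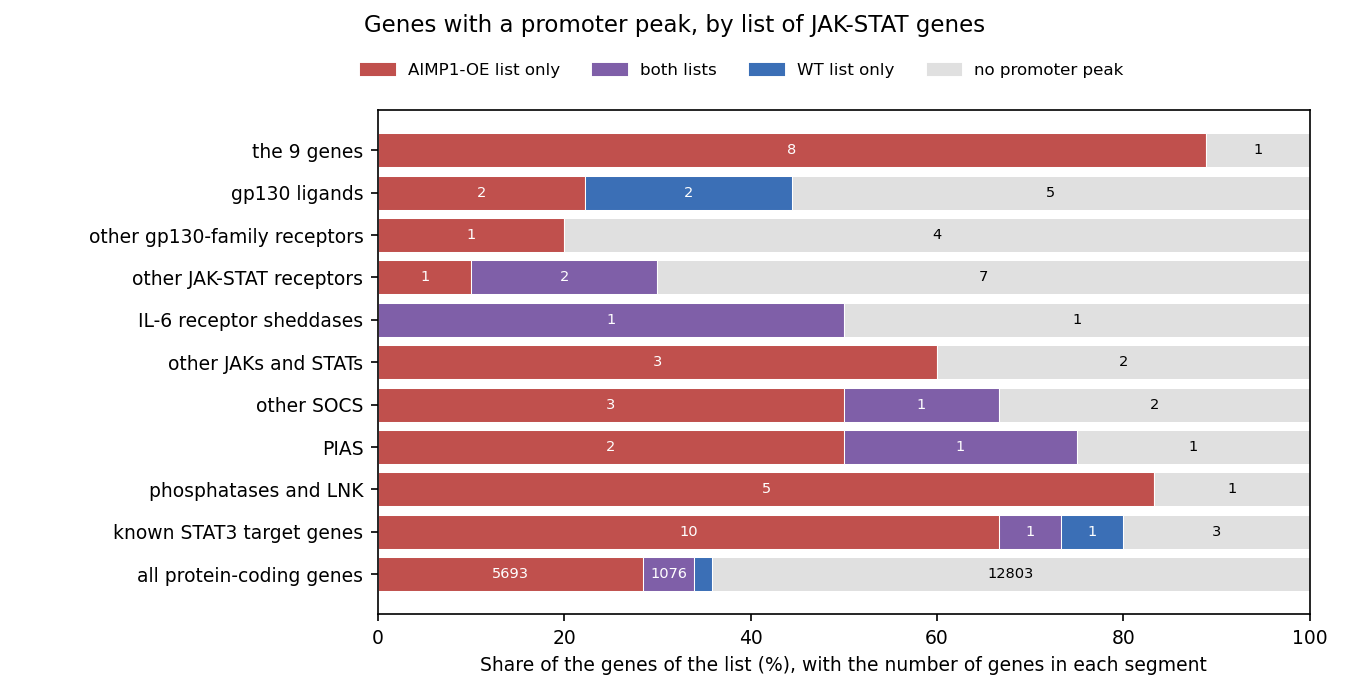
Share of the genes of each list, in percent, by where a promoter peak was listed, with the number of genes in the segments; the bottom bar is all 19974 protein-coding genes. AIMP1-OE-only genes number 8 of the 9 genes, 5 of 6 phosphatase and LNK genes and 10 of 15 STAT3 targets. Of protein-coding genes 28.5% are AIMP1-OE only, and 79.4% of those with at least 1 promoter peak. No promoter peak is listed for 16 of 24 ligand and receptor genes, against 64.1% of protein-coding genes. The same holds for 1 of 6 phosphatase and LNK genes and 3 of 15 STAT3 targets.

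The lists as a whole frame these values. Against the label of a plasma cell line, 7 of 9 plasma cell genes had an AIMP1-OE promoter peak, where 33.9% of protein-coding genes had one, and 0 of 12 B cell, T cell and monocyte genes did. In the WT list 1 of 9, MZB1, and 0 of 12 had one, where 7.4% of protein-coding genes did, so the WT list is too sparse for the markers to check its label. PRDM1 and IRF4 stand among both the plasma cell genes and the STAT3 targets, so those counts share genes. The WT list was shorter, and its promoter peaks were narrower and had larger p by the median. AIMP1-OE promoter peaks had a median width of 1684 bp and a median p of 1.36e-08, and WT promoter peaks 943 bp and 0.000194. These p-values are the authors' within each list and do not compare signal between the libraries. Read depth is unknown, and AIMP1 state, library and depth cannot be told apart with 1 library per group.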

How the data were processed

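Acetyl-H3 ChIP-seq was analysed from 1 deposited peak list per group. Bowtie2, Trimmomatic, cutadapt and FastQC were used upstream, per the submitters' processing notes. No source used here names the genome build, the peak caller, its threshold or how the inputs entered. Per the file headers, a peak carries a fold, a ratio by the authors over a background not described, and a p-value by the authors, at most 0.001. Positions, widths and summits are in bp as deposited, counted from 1. Of 12033 transcripts in the lists with a gene identifier in RefSeq (GRCh38.p14), 99.8% overlapped the gene of that identifier there, so RefSeq starts were laid beside the peaks. A promoter is as the authors annotate it, up to 3 kb from a start. Peaks overlapped if they shared at least 1 bp, a step tested on simulated data. Distances run between nearest ends. Percentiles give the share of peaks or windows at or below a value, with ties counted. Folds can be tied: the promoter peaks of SOCS1, IL11 and CLCF1, for example, share the value 8.38. Samples were grouped by title, and no test across samples was possible.

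The 9 genes and the pathway lists were chosen with earlier results of these data known; 1 item of a list is not reported here and is in no count over the lists. The rule for named genes was all 9, and of each pathway list up to 4 by AIMP1-OE fold and up to 2 by WT fold; PTPRC, STAT2, STAT4, IL6, ADAM17, CEBPB, SOCS4, PIAS2 and the fifth phosphatase-list gene were named after their calls were seen. Promoter windows come from RefSeq. Python 3.11.15, pandas 2.3.3, numpy 2.4.6 and matplotlib 3.10.9 were used.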

Additional observations from a re-analysis of the deposited data

How the results depend on the processing

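No paired analysis was possible because there was a single library in each group. The calls of the 9 genes rest on which peaks are kept. At p of at most 1e-05 SOCS3 lost its AIMP1-OE promoter peak, which left 7 genes, and with lists of equal length (4828 peaks each) TYK2 and SOCS3 lost theirs, which left 6. With any annotated peak, 1 of the 9, JAK1, was in both lists. The settings run were a 50% overlap, sharing within 1 kb, the p and fold thresholds, equal lengths, promoters within 1 kb, any annotated peak, gene ends and RefSeq starts. None of the 9 genes was WT only under them. Only any annotated peak, gene ends and RefSeq starts could have changed that, since the others add no WT promoter peak. No peak of the 9 genes overlapped the other list, and sharing within 1 kb found none either. The remaining settings could not have added an overlap, so their unchanged result says nothing more. Thresholds common to both lists remove mostly WT peaks: a fold of at least 6.11, the median over both lists, left 7128 AIMP1-OE and 177 WT peaks. By peaks within 1 kb of a gene end in RefSeq, STAT5B was not counted, since its peak lies at a start inside the RefSeq gene. Of the 62 pathway genes, those in both lists numbered 3 at p of at most 1e-05, 0 at that fold, 13 with any annotated peak and 3 by RefSeq starts. Those WT only, 3 by promoter peaks, numbered 0 at that fold, 5 with lists of equal length and 5 with any annotated peak. The setting of RefSeq starts was chosen after seeing the data. Read depth is unknown, so it is not known what either library could detect.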
